A study of Mus musculus with 8 samples.

Results

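Atp2a2 encodes SERCA2, the pump of the sarcoplasmic reticulum, and SERCA2a is its cardiac isoform. The peaks described here are all those that carried its Entrez gene ID, 11938, in the 2 deposited tables of N6-methyladenosine (m6A) peaks. They numbered 7 of the 581 listed peaks, with 2 of 116 in the table of infarcted against sham-operated hearts and 5 of 465 in the table of aavFto against aavgnp hearts. No other listed peak lay inside the gene span, with or without a gene ID, so the 7 peaks are all that either table held at this gene.

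After each beat SERCA2a returns calcium from the cytosol to the sarcoplasmic reticulum at the cost of ATP, which lets the cardiomyocyte relax and refills the store for the next contraction. Its activity is held down by phospholamban, and the calcium it stores is bound by calsequestrin and leaves through the ryanodine receptor. Loss of SERCA2a function is a well-known feature of failing myocardium. m6A is a methyl mark on adenosines inside RNA, which bears on splicing, stability and translation, and the demethylase FTO takes it off again.

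The 8 libraries came from left ventricle of wild-type C57BL/6 mice, harvested 1 week after surgery, as 1 MeRIP library and 1 input library for each of 4 groups. In MeRIP-seq an m6A antibody enriches methylated fragments of the RNA, and the input library is made without that step. Sham-operated hearts formed 1 group and hearts with a myocardial infarction (MI) another, and the remaining 2 groups, aavgnp and aavFto, were both infarcted. The labels expand neither name, and aavFto is read here as Fto delivered by vector, with aavgnp as the comparison group. The labels name no promoter for the vector, no age of the animals and no number of animals behind the RNA of a group. With 1 library of each kind there is no replicate check, and the authors' p-values and false discovery rates (FDR) compare libraries and not conditions. A positive log2 change was taken to mean higher in MI than in sham, or higher in aavFto than in aavgnp, after the order of names in the tables, and the opposite reading would turn the directions of the table concerned. Depth per library is unknown, since read counts were not analysed here.

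Atp2a2 lies on the minus strand of chromosome 5 in mm10, from 122453513 to 122502225, a span of 48713 nt. All 7 peaks fell in the 3′ part of that span. No peak was listed in the first 31027 nt from the 5′ end, 63.7% of the span, nor in the last 5938 nt. The centres lay at 65.2% to 87.1% of the way from the 5′ to the 3′ end, a position that counts introns. The tables give the parts of a peak as blocks separated by gaps, and 5 of the 7 peaks had more than 1 block. Exon models were not used here, so the blocks are not assigned to coding sequence or UTR.

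Of the gaps inside these peaks, 2 were the same to the base in both tables. The gap of 1353 nt from 122469815 to 122471167 occurred in the most 5′ peak of each table, and the gap of 78 nt from 122461785 to 122461862 occurred in a more 3′ peak of each. The peaks of both tables thus share these block edges exactly. The other gaps measured 746, 3964 and 589 nt in the MI table and 325 nt in the aavFto table.

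**Figure D1:**
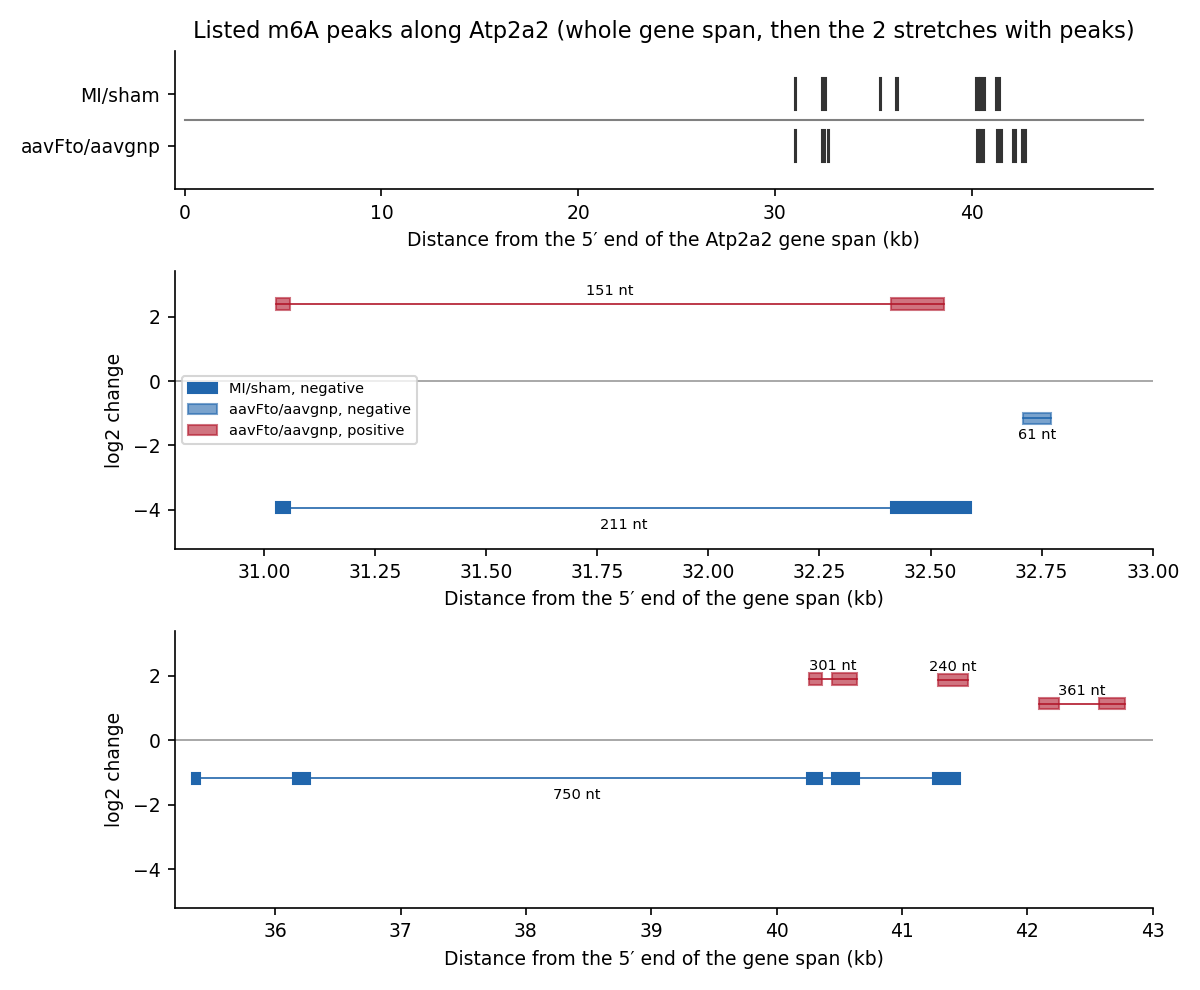
Position of the 7 listed Atp2a2 peaks. The top panel shows all blocks along the gene span in kb from its 5′ end, and the lower panels show the log2 change (y axis) of each peak against the same distance, with boxes for blocks, thin lines for gaps and the summed block length as text. Both MI peaks lie below 0, and 4 of the 5 aavFto peaks lie above it.

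The first comparison asked how m6A enrichment differed between infarcted and sham-operated ventricle. Both Atp2a2 peaks were lower in MI, and the more 5′ of them fell past the FDR of 0.05. That peak had a log2 change of -3.93 in the authors' deposited table, a 15.2-fold difference on the linear scale (differential p = 0.00182, FDR = 0.0288). It was the most negative of all 116 listed changes. The more 3′ peak stood at -1.18, or 2.27-fold lower, in the authors' deposited table, with a differential p of 0.049 and an FDR of 0.328, so it did not pass.

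The peak that passed ran from 122469635 to 122471198, as a block of 31 nt and, 3′ of it, a block of 180 nt, 211 nt in all. Its fold enrichment over input was 32.0, a linear ratio in the authors' deposited table, and its enrichment p was 5.5e-08. By enrichment p it ranked 36 of 116, and by fold enrichment 95 of 116. The most strongly changed Atp2a2 stretch thus stood in the stronger part of the table by p and in its weaker part by fold.

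The other MI peak was long. It ran from 122460760 to 122466886 and had 5 blocks of 59, 132, 123, 219 and 217 nt from 5′ to 3′, which sum to 750 nt. By length it ranked 2 of the 116 listed peaks, whose median was 150.5 nt. The authors' deposited table gave it a fold enrichment of 74.7 and an enrichment p of 6.31e-11, which ranked 9 of 116. At this length the peak covers a stretch of several blocks and not a single modified base. The better enriched of the 2 peaks thus had the smaller change, and the difference between them was not tested.

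Of all peaks listed for MI, 17 passed the FDR (14.7%), and 2 of them were negative (1.72%), the Atp2a2 peak and 1 in Myh6. At an unadjusted p under 0.05 the share was 25.9%, against both of the Atp2a2 peaks. A change of at most -1 on the log2 scale was listed for 15.5% of peaks. As no listed change was smaller than 1.01 in size, this is the share of all negative peaks. It adds nothing to the sign of the Atp2a2 peaks. Whether a cutoff on size was applied is not stated, so an Atp2a2 stretch with a lesser change may have gone unlisted. The median change was -2.56 over the Atp2a2 peaks and 1.92 over all listed peaks. Of 16 genes with at least 2 peaks, 12 had only positive peaks, 2 had both signs and 2 had only negative peaks, Atp2a2 and Mybpc3, which encodes cardiac myosin binding protein C.

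Negative changes were spread unevenly over the strength of the peaks, and differently by p and by fold. When the listed peaks were divided into 5 groups by enrichment p, the group that held the 750 nt peak had 8 negative peaks of 24, and the group that held the 211 nt peak had 7 of 23. These were the 2 strongest of the 5 groups, and 18 of all 116 listed peaks were negative. When they were divided by fold enrichment instead, the group of the 211 nt peak, with the lowest folds of 8.59 to 33.5, had 7 negative peaks of 24. The group of the 750 nt peak, with folds of 70.8 to 78.5, had 1 negative peak of 23, which was the Atp2a2 peak itself. The part of enrichment in these changes was not tested.

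**Figure D2:**
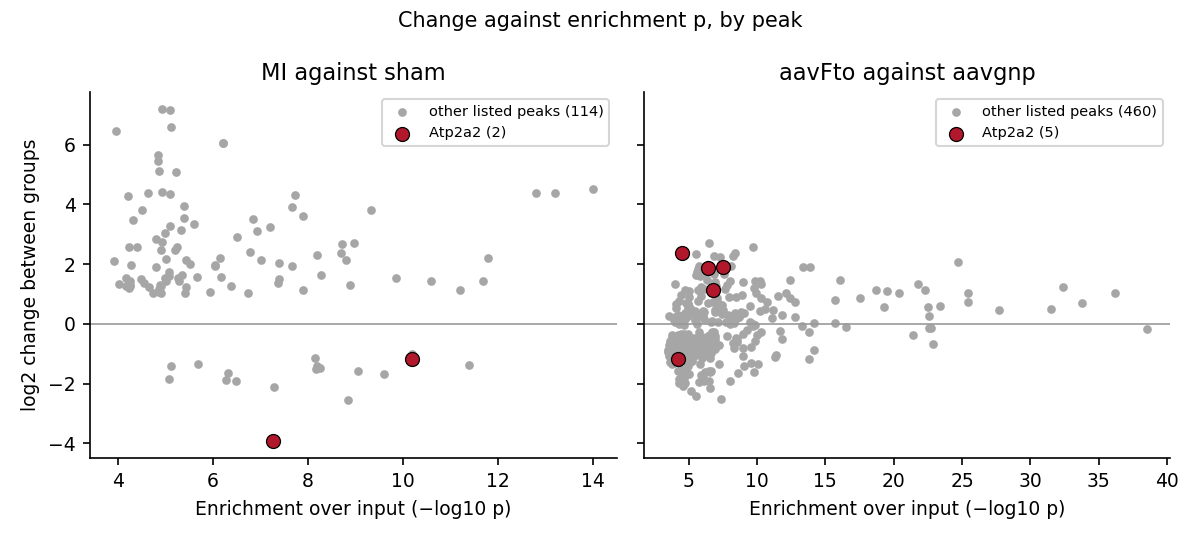
Log2 change (y axis) of every listed peak against its enrichment over input as −log10 p (x axis), with Atp2a2 in red and other peaks in grey, for each comparison. In MI against sham the Atp2a2 point at -3.93 is the lowest of all, and in aavFto against aavgnp the Atp2a2 points lie away from the strongest peaks.

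The second comparison asked how m6A enrichment in infarcted hearts differed between aavFto and aavgnp. Of the 5 Atp2a2 peaks, 4 had positive and 1 had negative changes, and none passed the FDR, which was 0.713 for each of them in the authors' deposited table. That FDR was shared by 443 of the 465 peaks of the table. At an unadjusted p under 0.05 there was 1 Atp2a2 peak, against 4.30% of all listed peaks, and 1.72% of the table passed the FDR. The median over the 5 peaks was 1.87, against -0.61 over all listed peaks.

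From 5′ to 3′, the first of these peaks ran from 122469695 to 122471198, in blocks of 31 and 120 nt. It had the largest change of the 5, 2.39, or 5.24-fold, in the authors' deposited table (differential p = 0.0708), the third most positive of all 465 changes. Its enrichment was among the lowest of the table, with a fold of 13.4, and 4 peaks had a lower one. Its enrichment log10 p of -4.53 ranked 334 of 465.

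The second, a single block of 61 nt from 122469456 to 122469516, was the negative one. Its change was -1.16 in the authors' deposited table (differential p = 0.525), and its fold enrichment of 51.1 came with an enrichment log10 p of -4.25. On the genome 178 nt lay between it and the peak at 2.39, so neighbouring stretches of the gene carried opposite signs. Another 14 peaks of the table had nearly the same enrichment, within 0.05 of its log10 p and 0.5 of its fold. All 14 were negative as well, from -0.96 to -0.37 with a median of -0.79. The Atp2a2 change of -1.16 lay below all of them. Whether such peaks owe their sign to low read counts was not tested.

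The third peak had blocks of 104 and 197 nt between 122461588 and 122461966. In the authors' deposited table its change was 1.91, or 3.76-fold, with a differential p of 0.049, the only unadjusted p of the 5 under 0.05. It was also the most strongly enriched of the 5 by p, at a log10 of -7.51, but its fold of 19.1 ranked 450 of 465. The fourth was a single block of 240 nt from 122460700 to 122460939, with a change of 1.87 (differential p = 0.188) and a fold enrichment of 30.9 in the authors' deposited table. The fifth and most 3′ had blocks of 161 and 200 nt between 122459451 and 122460136. Its change was 1.14 (differential p = 0.42) and its fold enrichment was 72.4 in the authors' deposited table.

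Among the 4 positive peaks the change was larger where the fold enrichment was lower, with 2.39, 1.91, 1.87 and 1.14 at folds of 13.4, 19.1, 30.9 and 72.4. These are 4 stretches of 1 transcript in the same libraries, and the order is a description. Over the whole table, the fifth of peaks with the lowest fold, 6.97 to 44.7, had 56 positive of 93, while 152 of all 465 were positive. That group held 3 of the 4 positive Atp2a2 peaks. The fifth with the highest fold held the peak at 1.14 and had 42 positive of 93. The fold group of the peak at -1.16 had 19 positive of 93. Positive peaks were thus more frequent at both ends of the fold than in that group, and their share did not simply fall as the fold rose. By enrichment p, the peak at 2.39 and the peak at -1.16 lay in groups with 11 positive peaks of 93 each, and the other 3 lay in a group with 45 of 93. The part of enrichment in these aavFto changes was not tested either.

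**Figure D3:**
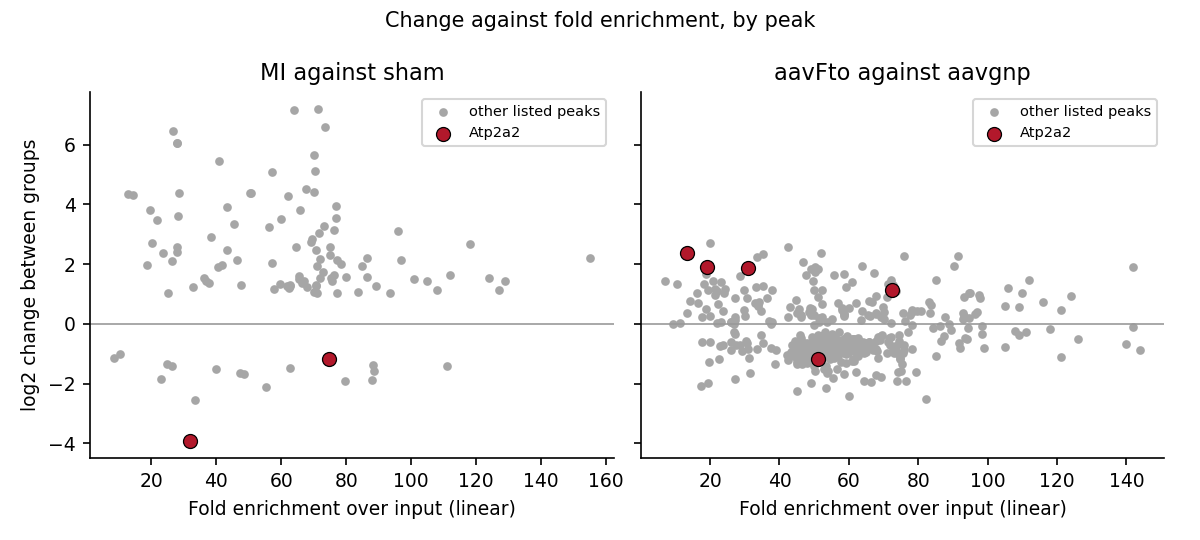
Log2 change (y axis) against the linear fold enrichment over input (x axis) for every listed peak, with Atp2a2 in red and other peaks in grey. In aavFto against aavgnp the positive Atp2a2 changes run from 2.39 at a fold of 13.4 to 1.14 at 72.4, and the negative one sits in a dense cloud of negative peaks near a fold of 50.

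All 5 Atp2a2 changes were at least 1 in size. A change of at least 1 was listed for 11.8% of peaks in this table and a change of at most -1 for 16.3%. Of 94 genes with at least 2 listed peaks, 49 had peaks of both signs, as Atp2a2 did. Among the 11 genes with 5 or more peaks Atp2a2 had the highest median, and over all 271 named genes its median ranked 5.

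The Atp2a2 peaks of both comparisons overlapped in large part. The MI peaks covered 961 nt and the aavFto peaks 1114 nt, and 632 nt were shared, 65.8% of the first and 56.7% of the second. The MI peak at -3.93 contained the whole of the aavFto peak at 2.39, and both began at the same base, 122471198. The long MI peak at -1.18 contained the whole of the aavFto peak at 1.91 and 180 of the 240 nt of the peak at 1.87. All 3 overlapping pairs were therefore negative in MI against sham and positive in aavFto against aavgnp. The negative 61 nt peak and the most 3′ peak of the aavFto table overlapped no MI peak.

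This opposition was not specific to Atp2a2. Across the 2 tables, overlapping peaks formed 122 pairs, and 18 of these were negative in MI. The 15 such pairs outside Atp2a2 lay in 9 named genes, with 2 pairs without a gene ID, and 14 of them were positive in aavFto. The exception was Ogdh, a subunit of the oxoglutarate dehydrogenase complex, with -1.93 for MI and -0.91 for aavFto by the authors' deposited tables. Among the 104 pairs that were positive in MI, 44 were positive in aavFto and 60 negative. The 2 comparisons used separate libraries and shared no control, but the MI table lists only changes of at least 1.01, so pairs with a small change in MI are not in these counts.

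Of the 74 genes with peaks in both tables, 8 had a negative median in MI and a positive one in aavFto. Atp2a2 stood at -2.56 and 1.87. The genes nearest to it in the plane of both medians, a likeness over only 2 comparisons, were Myh6, Atp5b, Cox7a1, Tle5 and Mybpc3, in that order. Myh6, the alpha myosin heavy chain, lay at -2.56 and 1.43, a distance of 0.44. Its single MI peak had an FDR of 0.0269 and its 5 aavFto peaks ran from 0.70 to 2.25, all positive, with a smallest FDR of 8.13e-10 in the authors' deposited table. Unlike Atp2a2, Myh6 thus had peaks past the FDR in both comparisons.

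Atp5b, the beta subunit of ATP synthase, followed at -1.40 and 1.40, at a distance of 1.25. It had 3 MI peaks from -1.48 to 1.54 and 4 aavFto peaks from 1.02 to 2.71. Cox7a1, a muscle subunit of cytochrome c oxidase, lay at -1.33 and 1.63 and Tle5, a member of a corepressor family, at -1.39 and 1.03, each with 1 peak a table. Mybpc3 lay at -1.87 and 0.55, and its smallest aavFto FDR was 0.0309 in the authors' deposited table. No peak of Atp5b, Cox7a1 or Tle5 passed the FDR in either comparison.

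**Figure D4:**
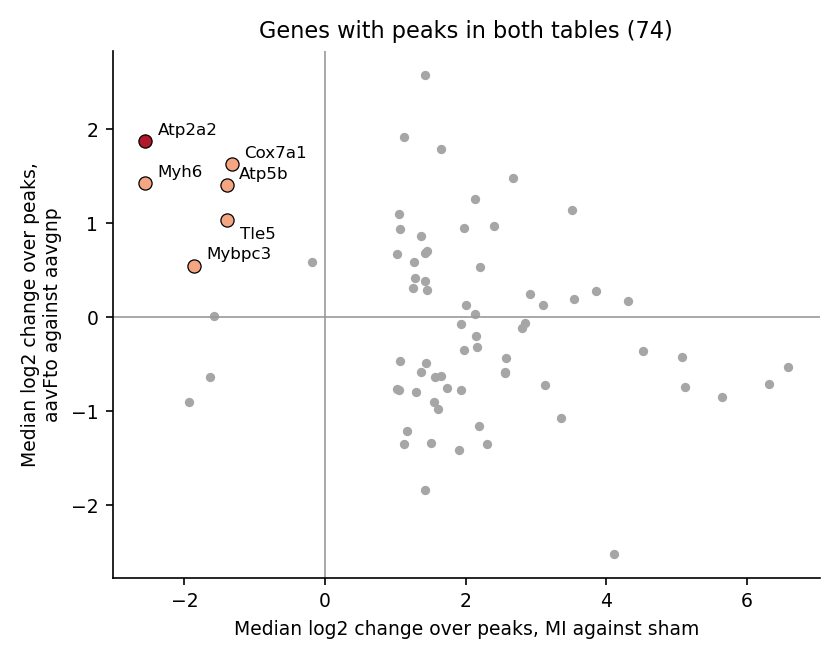
Median log2 change over a gene's listed peaks in MI against sham (x axis) and in aavFto against aavgnp (y axis) for the 74 genes with peaks in both tables. Atp2a2 (dark red, at -2.56 and 1.87) lies at the upper left with its 5 nearest genes (light red).

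A list of 37 other genes of cardiac calcium cycling was set beside Atp2a2. Few of them had listed peaks, 2 in the MI table and 9 in the aavFto table, and none of these passed the FDR. Absence from a table gives no information on methylation, as no source used here gives the rules by which peaks entered the tables. By each gene's largest change, 1 was positive and 1 negative in MI, against 67 and 10 of the 77 named genes, and the list's median was 0.85 against 1.61. With aavFto 3 were positive and 6 negative, against 82 and 189 of 271, and the median was -0.98 against -0.69. Genes with a peak past the FDR made up 10.4% of named genes in MI and 1.85% in aavFto.

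Proteins that hold calcium inside the store gave values on both sides of 0. Hrc, a histidine-rich calcium-binding protein of the sarcoplasmic reticulum, had MI peaks at -1.67 (FDR 0.656) and 1.31 (FDR 0.379) and aavFto peaks at 0.74 and 0.44 by the authors' deposited tables. Casq2, cardiac calsequestrin, stood at 3.36 in MI (FDR 0.163) and -1.07 in aavFto (FDR 0.713), opposite to the Atp2a2 median in both. The chaperones Calr and Canx were listed with aavFto only, at -0.62 and 0.77 for 2 peaks of Calr and -0.98 for Canx, in the authors' deposited table.

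The regulator of the pump and the proteins of calcium release and coupling were listed with aavFto only, where 189 of 271 named genes had a negative largest change, and no peak of theirs was called. The authors' deposited table gave -1.09 for Pln, which encodes phospholamban, at a peak of 61 nt with a differential p of 0.54. Ryr2, the ryanodine receptor, stood at -0.93 and Trdn, the junctional protein triadin, at -2.08 in the authors' deposited table. Jph2, which ties the sarcoplasmic reticulum to the surface membrane, had peaks at -1.60, -0.81 and 0.90, and Gja1, the gap junction protein connexin 43, stood at 1.74, in the authors' deposited table. Each of these peaks had an FDR of 0.713. The paralogous pumps Atp2a1 and Atp2a3 had no listed peak in either table.

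**Figure D5:**
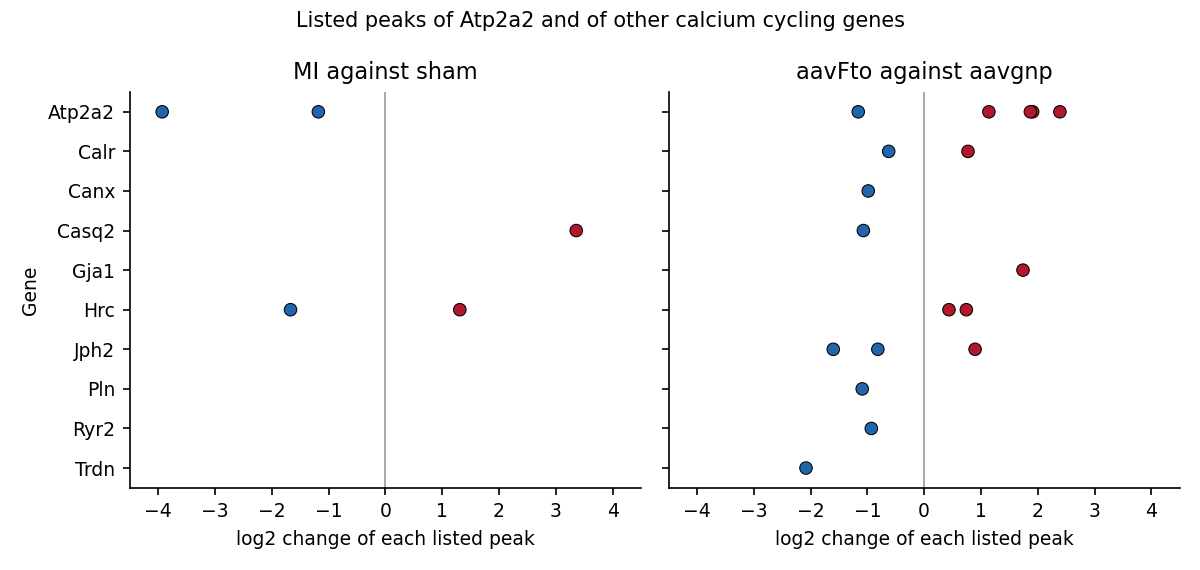
Log2 change (x axis) of each listed peak of Atp2a2 and of the other calcium cycling genes with a listed peak (rows), with negative values in blue and positive in red. With aavFto, Atp2a2 has peaks at 1.14 to 2.39 and at -1.16, and 5 of the other 9 genes have only negative peaks.

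The libraries hold RNA of the whole ventricle, and markers of other cell types had positive changes in the table in which the 5′ Atp2a2 peak fell. In MI against sham the 4 listed genes of 6 fibroblast markers were positive, from 4.31 to 7.17 with 2 past the FDR, as were 2 of 6 macrophage markers, at 2.16 and 3.51, and 3 of 6 endothelial markers, from 1.65 to 2.56, with none of these past the FDR. A positive largest change was listed for 87.0% of all named genes in MI, so the sign does not set these markers apart. Of 9 cardiomyocyte markers 1 was listed, Myh6, at -2.56. As 1 marker of 9, it does not stand for the cell type. Heart muscle genes outside the list were not gathered as a set. In aavFto against aavgnp all 9 cardiomyocyte markers were listed, 7 positive and 2 negative by largest change, from -1.99 to 2.25, against 82 and 189 of the 271 named genes. Myh6, Myl2 and Tnnt2 of them had a positive peak past the FDR, 3 of the 5 named genes of the table that did. There, by largest change, the fibroblast markers ran from -1.10 to 1.65 and the endothelial ones from -0.69 to -0.35. Apoe and Ctsd of the macrophage list stood at 1.14 and -0.83. Some of these genes had peaks of both signs, such as Col1a1 from -0.18 to 1.65 and Ctsd from -0.83 to 0.33. No smooth muscle marker of 4 was listed in either table. Fewer cardiomyocytes and less Atp2a2 RNA per cell cannot be told apart here, nor either of them from less m6A per transcript, because transcript levels were not analysed here. The part of cell make-up in the Atp2a2 changes was not tested.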

How the data were processed

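Per the labels' protocols, each group gave 200 µg of RNA, which was poly(A)-selected and fragmented before the m6A pulldown. The submitters' processing notes name STAR 2.5.3a and the build mm10. How peaks were called and libraries scaled is stated in none of the sources used here. Per the file headers, the deposited score is the enrichment p-value of a peak, which the authors also gave with its FDR as log10 values. The authors' fold enrichment is a linear ratio over input. The deposited change between groups is on a log2 scale, with the differential p and FDR as log10 values, which were converted for printing.

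Peaks were selected by gene ID with Python 3.11.15 and pandas 2.3.3. The gene IDs carried by 105 MI peaks and 449 aavFto peaks matched RefSeq gene names on GRCm38.p6, which is mm10's assembly. Coordinates are 1-based. Overlap meant at least 1 nt of shared block on the same strand. All p-values are the authors', and no test across samples was possible with 1 library a kind. Functions were tested on simulated data. Every Atp2a2 peak is named, with every listed gene of the calcium list and the 5 genes nearest to Atp2a2. The gene and the lists were chosen with earlier results of these data known. The alternatives tried were other FDR thresholds, unadjusted p, merged peaks, a minimum change, other summaries over peaks and a stricter overlap. No sequence of Atp2a2 was used.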

Additional observations from a re-analysis of the deposited data

How the results depend on the processing

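Of 26 alternatives, 12 left their result as it was, including an FDR of 0.1, merged peaks and a stricter overlap. The count of Atp2a2 peaks by sign was the same under each alternative run for it, but none of these could have changed it. Atp2a2 peaks of the same table do not overlap, so merging left them as they were. The minimum change of 1 removed no Atp2a2 peak, since all their changes with aavFto were larger in size. For the same reasons, neither could alter the counts past the FDR, nor the minimum change the aavFto median. With every aavFto peak of Atp2a2 at an FDR of 0.713, thresholds of 0.1 and 0.01 could not alter that count either. At an FDR of 0.01 the count past the threshold in MI against sham went from 1 to 0, and at an unadjusted p under 0.05 it was 2, and 1 with aavFto in place of 0. The median Atp2a2 change of -2.56 in MI became -1.18 at the peak of smallest enrichment p, -1.78 as a mean weighted by length and -3.93 at the peak of largest change. With aavFto the median of 1.87 became 1.91, 1.55 and 2.39 in the same order. With the sign of a table turned, a choice made after seeing the data, the medians read 2.56 and -1.87. The calcium list's median went from 0.85 to 1.59 in MI when a gene's peaks were averaged, and with aavFto from -0.98 to -0.93 both with that mean and with the peak of smallest enrichment p. These medians move because another peak or weight stands for the gene. No library could be left out with 1 of each kind, and the unknown depth sets no limit that could be given for any single peak.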
